A study of Mus musculus with 10 samples.

Results

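The genes encoding the proteasome, its activators and its assembly chaperones were examined across siRNA treatments of differentiating mouse embryonic stem cells. Members were all genes whose array symbol is Psma, Psmb, Psmc, Psmd, Psme, Psmf or Psmg followed by digits, which gave 47 genes of the 18194 measured. By textbook role they comprise 8 α ring genes, 7 constitutive β ring genes, 4 inducible or tissue-restricted β genes, 6 ATPases, 3 scaffold or ubiquitin receptor genes, 8 lid genes, 3 activators, 1 inhibitor, 4 core assembly chaperones and 3 base assembly chaperones. Cells of the NG4 line were transfected with siRNA as they were plated, differentiated with retinoic acid, and harvested for RNA 48 h after transfection. By the labels the 5 groups of 2 arrays differed in the siRNA alone, which was siNonTarget (the non-targeting control), siSox17, siFbxw7, siSocs3 or siRnf31. All groups, the control included, had therefore been transfected and exposed to retinoic acid, and all come from 1 cell line. The labels do not say whether the 2 arrays of a group are separate cultures, so p-values measure only the spread between these arrays, which may be technical.

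The proteasome is the protease that degrades proteins tagged with ubiquitin. Its core particle is a barrel of stacked rings: outer rings of α subunits, which gate the entry, and inner rings of β subunits, of which Psmb5, Psmb6 and Psmb7 carry the constitutive active sites. A regulatory particle caps the core; its base holds the ring of ATPases that unfolds substrates, and its lid removes the ubiquitin chain. In cells exposed to interferon the inducible subunits Psmb8, Psmb9 and Psmb10 replace the constitutive catalytic ones and form the immunoproteasome, which makes peptides for antigen presentation. Of the siRNA targets, Fbxw7 and Rnf31 belong to ubiquitin ligases, Socs3 is a feedback inhibitor of JAK-STAT signalling that can also recruit a ligase, and Sox17 is an endoderm transcription factor.

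Values are log2 of the RMA intensity, and a gene is read from its probe set with the highest mean. The labelled cell type was borne out by its markers, with Pou5f1 at 11.10 to 12.63 and Dppa5a at 13.88 to 14.25 over the 10 arrays. Markers of other cell types were mixed. Of 9 blood cell markers, Ptprc and Itgam were lowest, at 3.32 to 3.87 and 3.13 to 3.68, but Laptm5 read 7.99 to 10.20, Coro1a 6.62 to 7.50 and Cd74 6.27 to 6.78. Of 12 fibroblast markers, Lum and Postn were lowest, at 3.50 to 3.92 and 3.79 to 4.15, but Col1a2 read 7.997 to 9.62, Pdgfrb 8.62 to 9.32, Twist1 6.38 to 8.16 and Col3a1 4.93 to 8.35. The targeted genes did not check the labels: none of the 4 passed the test in its own group. Socs3 read 9.62 and 10.28 on the siNonTarget arrays and 10.66 and 10.11 on the arrays labelled siSocs3, and Sox17 read 6.37 and 7.39 against 6.32 and 7.50 on those labelled siSox17. Fbxw7, at 9.27 and 9.55 against 9.04 and 9.28 with siFbxw7, and Rnf31, at 7.91 and 7.62 against 7.13 and 7.59 with siRnf31, had their lowest group means in their own groups, with differences of -0.25 ± 0.15 and -0.40 ± 0.17 (limma adjusted p = 0.775 and 0.778). Directions are therefore those of the arrays so labelled. The actin 3' minus 5' difference, a sign of RNA quality, lay between 0.21 and 0.29 on 8 arrays, but reached 0.50 on the siNonTarget array numbered 1 and 0.60 on the siFbxw7 array numbered 1.

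No proteasome gene passed the test in any comparison. In limma's moderated test, with Benjamini-Hochberg adjustment over all 18194 genes and a threshold of 0.05, 0 of 47 members passed in each of the 4 comparisons with siNonTarget, in each of the 3 direct comparisons of siSocs3 with another siRNA, and in the F test of any difference among the 5 groups. The background for siSocs3 against siNonTarget was 3.59% of all genes called higher and 5.66% called lower. It was 0% higher and 0.0055% lower for siSox17, and 0% in both directions for siFbxw7 and for siRnf31. For siSocs3 it was 1.64% higher and 0.967% lower against siSox17, 2.09% and 1.41% against siFbxw7, and 1.5% and 0.627% against siRnf31, and the F test called 1.87%. Unadjusted p fell below 0.05 for 7 members of 47 (14.9%) in siSocs3 against siNonTarget and for 1 (2.13%) in siSox17, beside 26.2% and 17.3% of all genes. It did so for 0 members in siFbxw7 and in siRnf31, beside 6.45% and 5.87% of all genes. For siSocs3 against siSox17, siFbxw7 and siRnf31 it did so for 4, 4 and 3 members (8.51%, 8.51% and 6.38%), beside 17.4%, 18.5% and 16.9% of all genes. The member share was below that of all genes in each of the 7 comparisons. In siSocs3 against siNonTarget a trended and robust prior called 2 members lower, Psma3 and Psma7, and the other 17 settings of the gene fit called 0. In siSocs3 against siRnf31 Psmb8 was called lower when the arrays of high actin difference were left out and when only the 2 groups were fitted. In bulk RNA fewer cells of a type and less RNA per cell cannot be told apart.

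**Figure D1:**
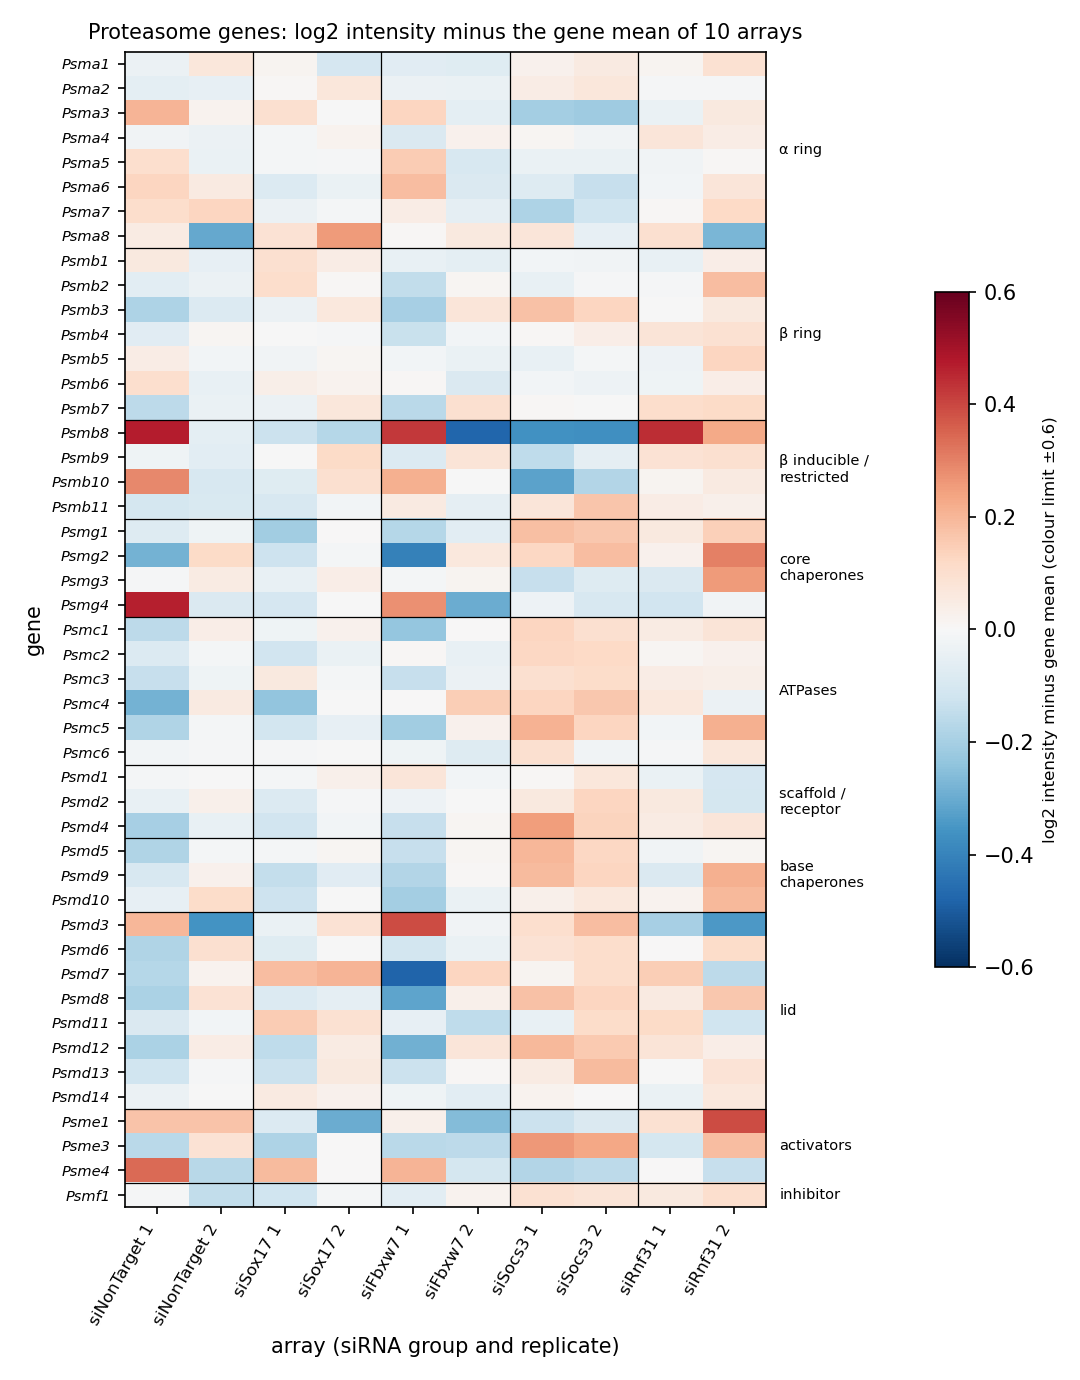
Each row is 1 of the 47 genes, grouped by role, and each column 1 of the 10 arrays; the colour gives log2 intensity minus that gene's mean over the arrays, with the scale ending at 0.6 in either direction. Most rows are pale, Psmb8 holds both deep red and deep blue cells, and siNonTarget replicate 1 and siFbxw7 replicate 1 share much of their colouring.

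The 47 genes varied little from array to array. The range of a member over the 10 arrays had a median of 0.33 on the log2 scale and ran from 0.13 for Psmd14 to 0.95 for Psmb8, beside a median of 0.49 over all genes. In 38 of 47 members (80.9%) the range was under 0.5, as it was in 52.5% of all genes. The members are also far brighter, with a median level of 11.76 beside 7.002 over all genes, and the part of brightness in the narrower range was not tested. The fitted 95% intervals give, gene by gene, the changes that the spread between these arrays allows. That spread may be technical, so the intervals do not bound a change between cultures. In siSocs3 against siNonTarget 46 of 47 intervals lay inside a 2-fold change in either direction, and 40 inside 1.5-fold; the exception at 2-fold was Psmb8. In siSox17, siFbxw7 and siRnf31 against siNonTarget all 47 lay inside 2-fold, and 42, 43 and 43 inside 1.5-fold. Over all genes the share inside 2-fold was 89.4% for siSocs3, 92.2% for siSox17, 95.8% for siFbxw7 and 95.6% for siRnf31. Inside 1.5-fold it was 65.5%, 72.5%, 79.6% and 79.5% in the same order.

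The median estimate over members lay above 0 in siSocs3 and siRnf31 and close to 0 in siSox17 and siFbxw7. In siSocs3 against siNonTarget 33 of 47 members lay above 0, with a median difference of 0.10, beside 0.03 over all genes. In siRnf31 35 of 47 lay above 0, with a median of 0.08, beside 0.00 over all genes. In siSox17 27 of 47 lay above 0, with a median of 0.01, and in siFbxw7 17 of 47, with a median of -0.03. Over all 18194 genes, 9820 lay above 0 in siSocs3, 8938 in siRnf31, 8991 in siSox17 and 9134 in siFbxw7. These comparisons share the siNonTarget arrays, and the siSocs3 and siRnf31 medians were both 0.04 once siNonTarget replicate 1, where the actin difference is high, was left out. The medians of the other 2 groups changed sign with 1 array: siSox17 gave -0.01 without siSox17 replicate 2, and siFbxw7 gave 0.0043 without siFbxw7 replicate 1. For siFbxw7 the sign also turned, to 4e-04, when probe sets were averaged for each gene. The part of RNA quality in these shifts was not tested.

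**Figure D2:**
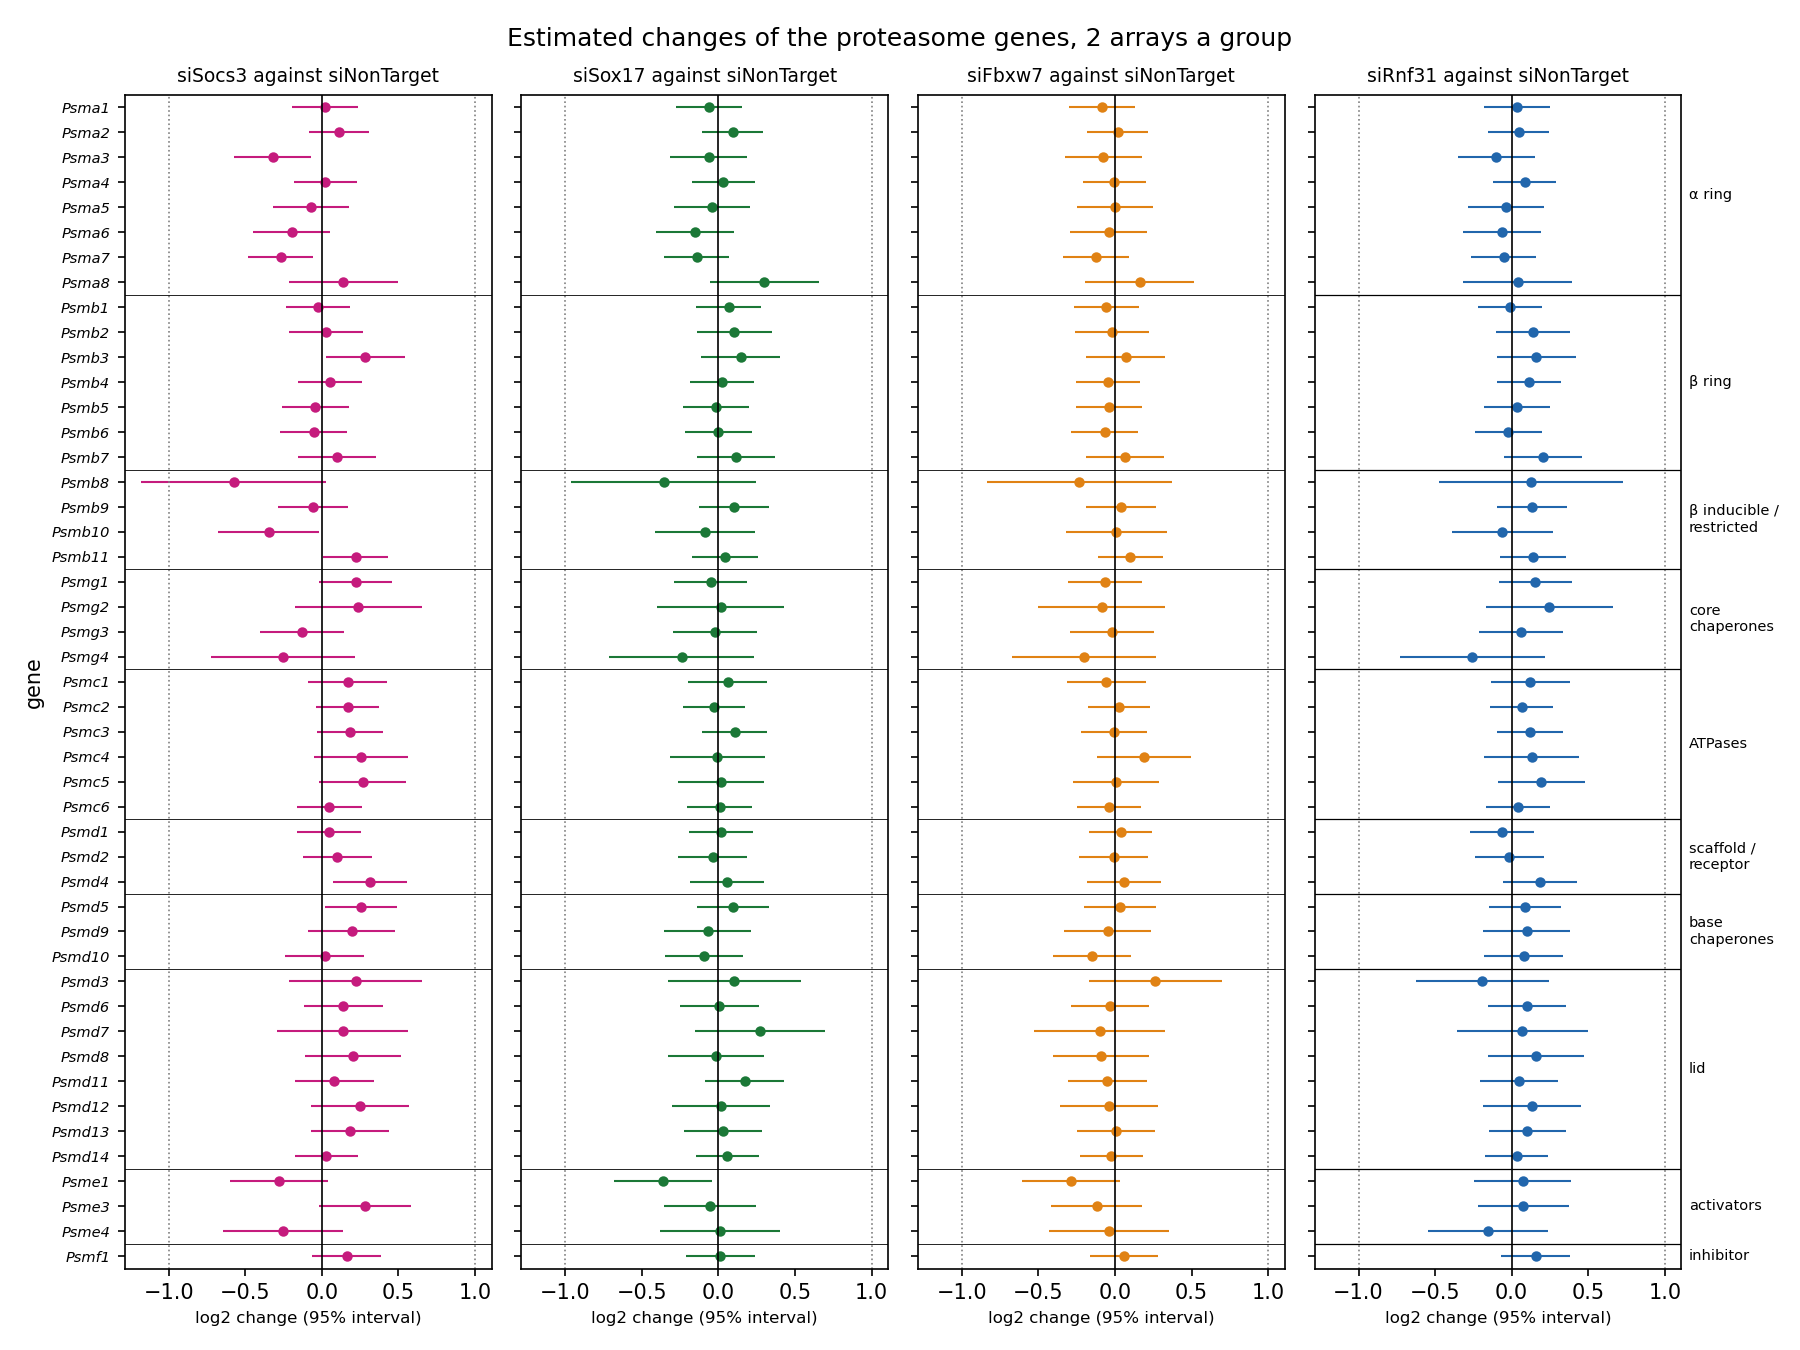
Points are the estimated log2 differences of the 47 genes from siNonTarget, 1 panel for each targeted siRNA, bars are 95% intervals of limma's fit with 2 arrays a group, and dotted lines mark a 2-fold change. The bars of Psmb8 are the widest, and in the siSocs3 panel the points of the ATPases and the lid all sit to the right of 0.

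Promoter sequence is shown for the 3 members that the values single out: Psmb8 had the widest range, Psme1 the smallest p in the F test, and Psmd4 the smallest p among members in siSocs3 against siNonTarget. Each run gives the 250 bases before the annotated start from RefSeq (build GRCm38.p6), 5′ to 3′ on the gene's strand. Psmb8 is on the plus strand at chr17:34197945-34198194, Psme1 on the plus strand at chr14:55578244-55578493, and Psmd4 on the minus strand at chr3:95042615-95042864. Capitals mark a match to the STAT motif TTCNNNGAA, the interferon-type motif GAAANNGAA or the motif TGACNNNGC of the CNC-bZIP factors, among them Nfe2l1, the known activator of proteasome genes.
Psmb8: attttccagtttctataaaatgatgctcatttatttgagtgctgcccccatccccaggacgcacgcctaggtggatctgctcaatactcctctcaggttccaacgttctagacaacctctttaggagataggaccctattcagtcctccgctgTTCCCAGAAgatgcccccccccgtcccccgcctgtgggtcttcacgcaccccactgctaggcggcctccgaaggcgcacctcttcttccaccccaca
Psme1: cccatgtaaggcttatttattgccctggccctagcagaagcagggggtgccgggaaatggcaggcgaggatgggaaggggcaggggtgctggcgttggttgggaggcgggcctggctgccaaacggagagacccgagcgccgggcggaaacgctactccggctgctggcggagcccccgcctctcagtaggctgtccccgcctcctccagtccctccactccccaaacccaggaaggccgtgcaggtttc
Psmd4: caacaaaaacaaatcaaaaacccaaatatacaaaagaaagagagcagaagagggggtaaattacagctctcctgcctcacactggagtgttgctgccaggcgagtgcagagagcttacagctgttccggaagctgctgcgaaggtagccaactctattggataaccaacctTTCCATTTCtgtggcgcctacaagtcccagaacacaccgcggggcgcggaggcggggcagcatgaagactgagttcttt
The Psmb8 window held 1 STAT match, from 97 to 89 bases before the start, and the Psmd4 window 1 interferon-type match on its opposite strand, from 79 to 71 bases before it. The Psme1 window held none of the 3 motifs. A window was given for 39 of the 47 members, and both strands were searched. The STAT motif was in 2 of those 39, Psmb8 and Psmg1, and in 7.02% of all 32851 windows. The interferon-type motif was in 3 of 39 and in 7.13% of all windows, and TGACNNNGC in 5 of 39 (12.8%) and in 10.2%. CCGGAAGT, an ETS-family motif, was in 5 of 39 (12.8%) and 2.88% of all windows, GGGCGG, the GC box, in 53.8% and 32.7%, and CCAAT, the NF-Y box, in 35.9% and 33.8%. A match is only a description of the letters.

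Among the α ring genes, which form the outer rings of the core, 4 of 8 estimates lay above 0 and 4 below in siSocs3 against siNonTarget, with a median of -0.02 that became 0.01 when probe sets were averaged for each gene. Psma3 read 13.14 and 12.96 with siNonTarget, 13.04 and 12.94 with siSox17, 13.07 and 12.88 with siFbxw7, 12.74 and 12.73 with siSocs3, and 12.90 and 13.00 with siRnf31. Both arrays labelled siSocs3 were below the other 8, at a difference from siNonTarget of -0.32 ± 0.11 (standard error, 2 arrays a group, limma adjusted p = 0.107). The other, far dimmer Psma3 probe set did not share this, at 6.03 and 6.31 with siNonTarget and 6.38 and 6.09 with siSocs3. Psma7 read 12.17 and 12.20 with siNonTarget, 12.03 and 12.05 with siSox17, 12.11 and 12.01 with siFbxw7, 11.88 and 11.95 with siSocs3, and 12.07 and 12.19 with siRnf31. Its siSocs3 arrays were again the lowest of the 10, with a difference of -0.27 ± 0.09 (limma adjusted p = 0.110). The testis-enriched paralogue of Psma7, Psma8, read 9.31 and 8.95 with siNonTarget, 9.34 and 9.51 with siSox17, 9.27 and 9.32 with siFbxw7, 9.33 and 9.21 with siSocs3, and 9.35 and 8.99 with siRnf31. Psma8 was lowest on siNonTarget replicate 2 and siRnf31 replicate 2. Its largest difference from siNonTarget was 0.30 ± 0.16 in siSox17 (limma adjusted p = 0.370). Both siSox17 arrays were above both siNonTarget arrays, and the other groups overlapped siNonTarget. Over Psma1, Psma2, Psma4, Psma5 and Psma6 the range across arrays ran from 0.13 to 0.32.

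The 7 constitutive β ring genes gave estimates from -0.07 to 0.29 over the 4 comparisons with siNonTarget. Psmb5, which carries the chymotrypsin-like site, read 12.58 and 12.53 with siNonTarget, 12.52 and 12.55 with siSox17, 12.53 and 12.50 with siFbxw7, 12.50 and 12.53 with siSocs3, and 12.51 and 12.67 with siRnf31. Psmb6, with the caspase-like site, stayed within 12.47 to 12.65 on all arrays, and its differences from siNonTarget were -0.05 with siSocs3, -0.00 with siSox17, -0.07 with siFbxw7 and -0.02 with siRnf31. Neither gene set any group apart from the others. Psmb7, with the trypsin-like site, read 10.82 and 10.94 with siNonTarget, 10.94 and 11.05 with siSox17, 10.81 and 11.07 with siFbxw7, 10.99 and 10.97 with siSocs3, and 11.08 and 11.09 with siRnf31. Its siRnf31 arrays were the highest of the 10 and its siNonTarget arrays among the lower ones, and this gave the smallest p of any member in siRnf31 against siNonTarget, at 0.21 ± 0.11 (limma adjusted p = 0.778). Psmb4, a structural subunit, read 12.79 and 12.87 with siNonTarget, 12.85 and 12.85 with siSox17, 12.72 and 12.84 with siFbxw7, 12.86 and 12.89 with siSocs3, and 12.93 and 12.95 with siRnf31. It too was highest on both siRnf31 arrays, at 0.11 ± 0.09 above siNonTarget. Its other probe set did not share this, at 12.07 and 12.23 with siNonTarget and 12.18 and 12.04 with siRnf31. Psmb3, named for its p after its values were seen, read 11.93 and 12.03 with siNonTarget, 12.08 and 12.18 with siSox17, 11.92 and 12.19 with siFbxw7, 12.29 and 12.24 with siSocs3, and 12.11 and 12.18 with siRnf31. The siSocs3 arrays of Psmb3 exceeded the other 8, with a difference of 0.29 ± 0.11 (limma adjusted p = 0.151). Its other probe set differed less in the same direction, at 11.86 and 11.79 with siNonTarget and 11.97 and 11.91 with siSocs3.

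Among the inducible subunits of the immunoproteasome, Psmb8 had the widest range of the 47 members and the largest standard error, whereas Psmb9 and Psmb10 did not stand out in this way. Psmb8 read 7.01 and 6.48 with siNonTarget, 6.41 and 6.37 with siSox17, 6.96 and 6.06 with siFbxw7, 6.17 and 6.17 with siSocs3, and 6.98 and 6.77 with siRnf31. Its replicates lay 0.53 apart with siNonTarget and 0.90 apart with siFbxw7, and in both groups the array of high actin difference was the higher one. The siSocs3 arrays lay 0.01 apart and below all but siFbxw7 replicate 2. The difference of siSocs3 from siNonTarget was -0.57 ± 0.27, with a 95% interval of -1.18 to 0.03 (limma adjusted p = 0.209), and from siRnf31 it was -0.70 ± 0.27 (adjusted p = 0.230). The second of these passed the threshold without both arrays of high actin difference, at an adjusted p of 0.0197, and with only the siSocs3 and siRnf31 arrays fitted, at 0.0466. Psmb10 read 9.38 and 8.99 with siNonTarget, 9.01 and 9.18 with siSox17, 9.30 and 9.08 with siFbxw7, 8.76 and 8.91 with siSocs3, and 9.10 and 9.14 with siRnf31. Its siSocs3 arrays were the lowest of the 10, at -0.35 ± 0.15 from siNonTarget (limma adjusted p = 0.170). Psmb9 stayed within 6.33 to 6.60, and its largest difference from siNonTarget was 0.13 ± 0.10, with siRnf31. Psmb11, the thymus-restricted subunit, stayed within 3.79 to 4.07, near the bottom of the array scale, with a siSocs3 difference of 0.22 ± 0.09 (limma adjusted p = 0.178).

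**Figure D3:**
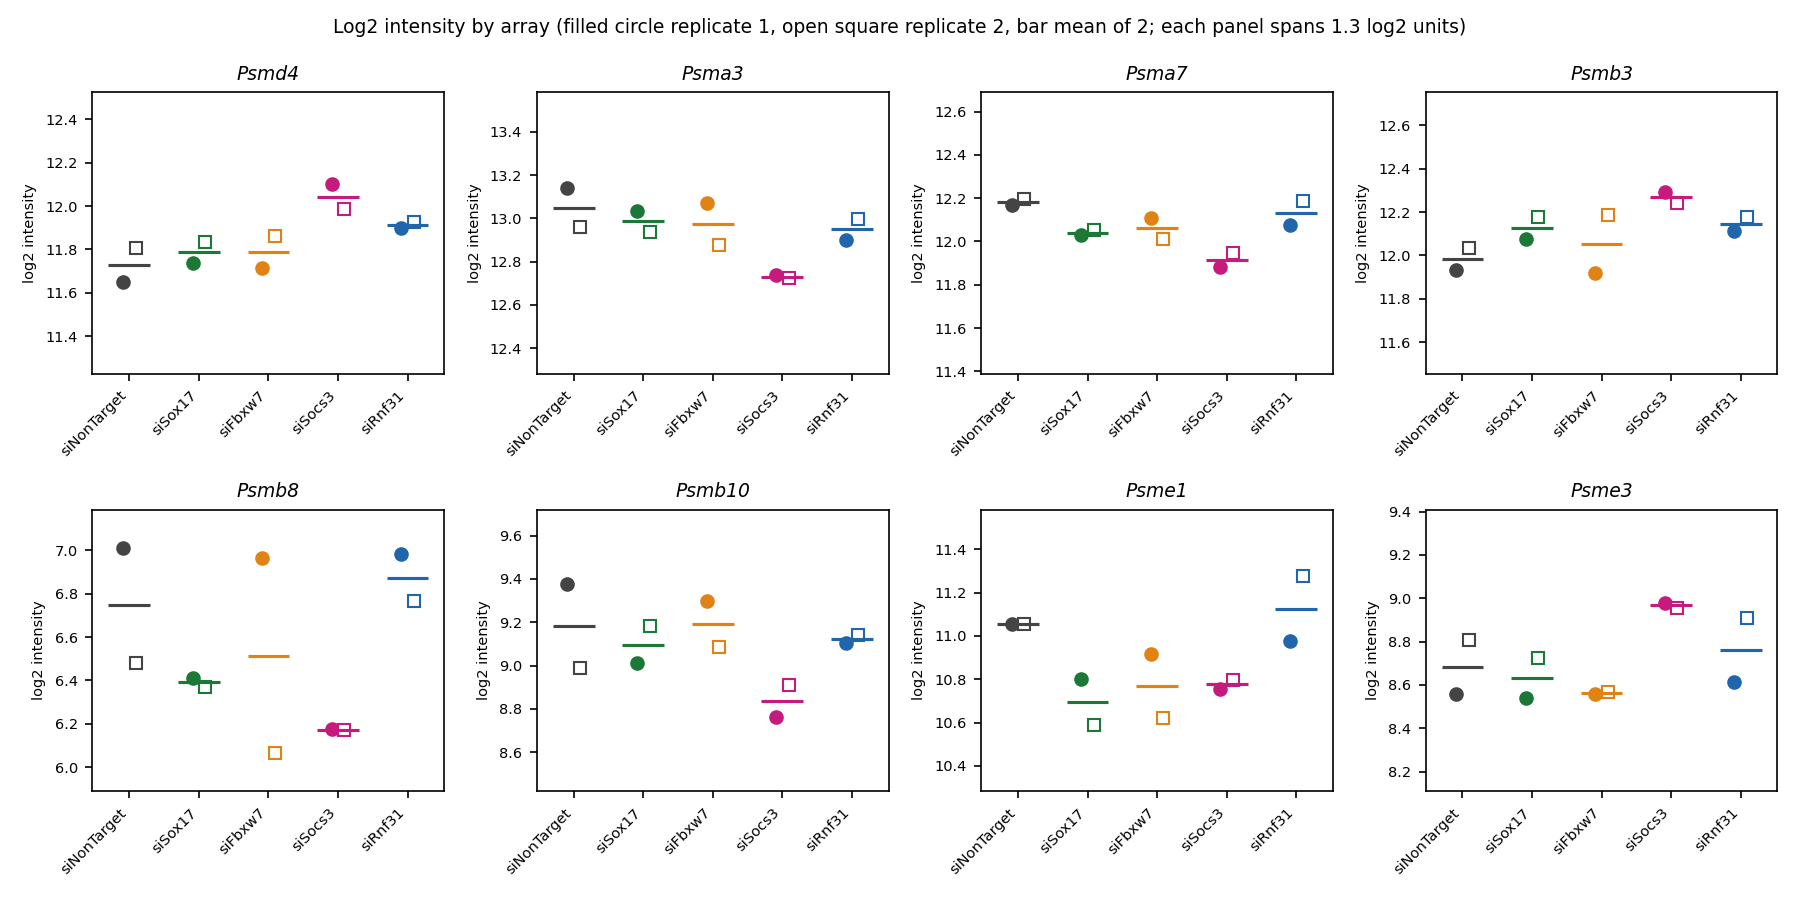
Log2 intensity of 8 genes on each of the 10 arrays, by siRNA group; filled circles are replicate 1, open squares replicate 2 and bars the mean of both, and every panel spans the same height. Both siSocs3 points stand above the other 8 for Psmd4, Psmb3 and Psme3 and below them for Psma3, Psma7 and Psmb10, while the replicates of Psmb8 lie far apart with siNonTarget and siFbxw7.

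The 6 ATPases of the base all had estimates above 0 in siSocs3 against siNonTarget, with a median of 0.18 and a range of 0.05 to 0.27, and none passed the test. Psmc2 read 12.27 and 12.34 with siNonTarget, 12.24 and 12.31 with siSox17, 12.36 and 12.31 with siFbxw7, 12.48 and 12.47 with siSocs3, and 12.36 and 12.38 with siRnf31. Psmc1 read 10.82 and 11.02 with siNonTarget, 10.95 and 11.00 with siSox17, 10.74 and 10.98 with siFbxw7, 11.10 and 11.07 with siSocs3, and 11.02 and 11.05 with siRnf31. Both were highest on the siSocs3 arrays, with differences of 0.17 ± 0.09 and 0.17 ± 0.11 (limma adjusted p = 0.272 and 0.385). The estimates of Psmc3, Psmc4 and Psmc5 were 0.18, 0.26 and 0.27. The ATPase median was 0.11 without siNonTarget replicate 1 and 0.25 without siNonTarget replicate 2. All 6 estimates stayed above 0 in both cases; 5 of 6 did without siSocs3 replicate 1, and 5 of 6 when probe sets were averaged for each gene. In siRnf31 the 6 estimates were above 0 as well, with a median of 0.12.

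The scaffold and ubiquitin receptor genes included the member with the smallest p in siSocs3 against siNonTarget. Psmd4, a receptor that binds ubiquitin chains, read 11.65 and 11.81 with siNonTarget, 11.74 and 11.83 with siSox17, 11.71 and 11.86 with siFbxw7, 12.10 and 11.98 with siSocs3, and 11.90 and 11.93 with siRnf31. Its siSocs3 arrays stood above the other 8, at 0.31 ± 0.11 from siNonTarget, with a 95% interval of 0.07 to 0.56 (limma adjusted p = 0.0986). Another Psmd4 probe set gave 0.42 for the same difference, in the same direction, with a limma adjusted p of 0.177 when every probe set was tested alone. On that probe set siRnf31 replicate 2, at 11.57, exceeded siSocs3 replicate 2, at 11.46. Psmd2, a scaffold, stayed within 12.27 to 12.51, and Psmd1, the other scaffold, within 11.74 to 11.92. Neither differed from siNonTarget by more than 0.10 in any of the 4 comparisons.

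The 8 lid genes, like the ATPases, all had estimates above 0 in siSocs3 against siNonTarget, with a median of 0.16. That median was 0.06 without siNonTarget replicate 1 and 0.24 without siNonTarget replicate 2, and in the second case 7 of 8 were above 0. Against the same siNonTarget arrays, 7 of 8 lid estimates lay above 0 in siSox17 and 7 of 8 in siRnf31. Their medians were 0.04 and 0.08. In siFbxw7 2 of 8 lay above 0, with a median of -0.03. Psmd14, the enzyme that cuts the ubiquitin chain from the substrate, had the narrowest range of the 47 and read 12.27 and 12.31 with siNonTarget, 12.36 and 12.33 with siSox17, 12.28 and 12.25 with siFbxw7, 12.33 and 12.31 with siSocs3, and 12.27 and 12.37 with siRnf31. Its differences from siNonTarget ran from -0.03 to 0.06, less than their standard error of 0.09. Psmd11, a lid subunit that helps hold core and cap together, read 12.22 and 12.29 with siNonTarget, 12.46 and 12.40 with siSox17, 12.26 and 12.15 with siFbxw7, 12.26 and 12.41 with siSocs3, and 12.42 and 12.19 with siRnf31. Both siSox17 arrays of Psmd11 were above both siNonTarget arrays, and the other groups overlapped siNonTarget. Its siSocs3 difference was 0.08 ± 0.11 (limma adjusted p = 0.693). The gene has 8 probe sets, and the size of this difference depended on the probe set. A dimmer one read 10.09 and 9.96 with siNonTarget and 10.33 and 10.34 with siSocs3, which were the highest of the 10. Another read 10.93 and 11.25 against 11.31 and 11.48. Psmd13 read 10.37 and 10.48 with siNonTarget, 10.36 and 10.55 with siSox17, 10.36 and 10.50 with siFbxw7, 10.54 and 10.68 with siSocs3, and 10.48 and 10.57 with siRnf31. The siSocs3 arrays of Psmd13 were above both siNonTarget arrays, by 0.18 ± 0.11 on average (limma adjusted p = 0.337). Psmd7 was the only member whose 2 siSox17 arrays, at 11.93 and 11.95, exceeded all others, and its siFbxw7 arrays lay at 11.26 and 11.87.

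The activators open the core without the cap's ATPases. Psme1, a subunit of the interferon-inducible activator, read 11.05 and 11.06 with siNonTarget, 10.80 and 10.59 with siSox17, 10.91 and 10.62 with siFbxw7, 10.75 and 10.80 with siSocs3, and 10.98 and 11.28 with siRnf31. Both siSox17 arrays, both siFbxw7 arrays and both siSocs3 arrays were below both siNonTarget arrays, whereas the siRnf31 arrays fell on either side of them. Psme1 had the smallest p of any member in siSox17 and in siFbxw7 against siNonTarget, with differences of -0.36 ± 0.14 and -0.29 ± 0.14 (limma adjusted p = 0.240 and 0.766). Its moderated F test over the 5 groups in limma gave an adjusted p = 0.251 (unadjusted 0.0468). Its partner Psme2 is no member, because its probe set carries 2 gene symbols. Psme3, the nuclear activator, read 8.56 and 8.81 with siNonTarget, 8.54 and 8.72 with siSox17, 8.56 and 8.57 with siFbxw7, 8.98 and 8.95 with siSocs3, and 8.62 and 8.91 with siRnf31. The siSocs3 arrays were the highest of the 10, at 0.28 ± 0.13 from siNonTarget and 0.40 ± 0.13 from siFbxw7 (limma adjusted p = 0.213 and 0.145). The dimmer Psme3 probe sets were mixed. The brighter of them overlapped, at 7.32 and 7.56 with siNonTarget and 7.37 and 7.39 with siSocs3. The dimmest read 5.16 and 5.38 against 5.58 and 5.47. Psme4, which is known from spermatogenesis and DNA repair, read 12.03 and 11.53 with siNonTarget, 11.88 and 11.69 with siSox17, 11.89 and 11.59 with siFbxw7, 11.52 and 11.54 with siSocs3, and 11.69 and 11.55 with siRnf31. The replicates of Psme4 lay 0.50 apart with siNonTarget, more than its difference of -0.25 ± 0.17 in siSocs3. Psmf1, which inhibits the core, stayed within 8.55 to 8.80, with differences of 0.16 ± 0.10 in siSocs3 and 0.16 ± 0.10 in siRnf31 (limma adjusted p = 0.339 and 0.778). Its direction in siSocs3 depends on the probe set: the other 3 gave -0.23, -0.07 and -0.22, and their average with the brightest gave -0.09 (limma adjusted p = 0.624).

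Of the chaperones that build the core, Psmg1 read 10.98 and 11.03 with siNonTarget, 10.85 and 11.07 with siSox17, 10.89 and 11.00 with siFbxw7, 11.24 and 11.22 with siSocs3, and 11.12 and 11.20 with siRnf31. Its siSocs3 arrays were the highest, and in siSocs3 against siSox17 it had the smallest p of the members, at 0.27 ± 0.11 (limma adjusted p = 0.228). Psmg4 read 9.80 and 9.25 with siNonTarget, 9.24 and 9.34 with siSox17, 9.61 and 9.04 with siFbxw7, 9.31 and 9.24 with siSocs3, and 9.22 and 9.32 with siRnf31. Its highest arrays were siNonTarget replicate 1 and siFbxw7 replicate 1, the arrays of high actin difference. Among the base chaperones, Psmd5 read 10.32 and 10.48 with siNonTarget, 10.48 and 10.51 with siSox17, 10.36 and 10.50 with siFbxw7, 10.69 and 10.62 with siSocs3, and 10.47 and 10.50 with siRnf31. The siSocs3 arrays of Psmd5 exceeded the other 8, at 0.26 ± 0.10 from siNonTarget (limma adjusted p = 0.153). Psmd9 stayed within 8.87 to 9.26 and differed by 0.19 ± 0.13 in the same comparison.

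A count of genes whose 2 arrays lie outside the range of the other 8 gives another view of the groups. With siSocs3, 10 of 47 members (21.3%) had both arrays above all others: Psmb3, Psmb11, Psmc1, Psmc2, Psmc3, Psmd4, Psmd5, Psmd12, Psme3 and Psmg1. The same held for 11.3% of all genes. Psma3, Psma7 and Psmb10 (6.38%) had both siSocs3 arrays below all others, beside 10.4% of all genes. With siRnf31, Psma4, Psmb4 and Psmb7 lay above (6.38%, all genes 1.03%) and Psmd1 below (2.13%, all genes 1.59%). With siSox17 1 member lay above and 0 below (all genes 3.69% and 3.59%), with siFbxw7 0 above and 1 below, Psmc6 (all genes 1.74% and 1.19%), and with siNonTarget 0 above and 1 below, Psma2 (all genes 4.68% and 3.69%). The members named for this count alone were chosen after their values were seen, and no test of these counts was made.

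Replicates of 2 groups differed in a shared way. The difference of replicate 1 from replicate 2 was compared between groups over the 47 members, where each point is 1 gene read on 4 arrays. For siNonTarget and siFbxw7, the groups whose replicate 1 has the high actin difference, Pearson's r across genes was 0.792, beside 0.421 over all genes. For the other 9 pairs of groups it ran from -0.12 to 0.35 over members. Psmb8, Psmg4, Psmd3 and Psme4 were higher on replicate 1 in both groups, by 0.31 to 0.90. Psmg2 and Psmd12 were lower on replicate 1 in both, with differences of -0.47 to -0.23, and Psmd7 gave -0.19 with siNonTarget and -0.61 with siFbxw7. All 6 ATPases and 7 of 8 lid genes read lower on siNonTarget replicate 1 than on replicate 2, with median differences of -0.14 and -0.15. With siSocs3 the corresponding medians were 0.02 and -0.05. These are descriptions across genes, which are not independent replicates, and the part of RNA quality in them was not tested.

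**Figure D4:**
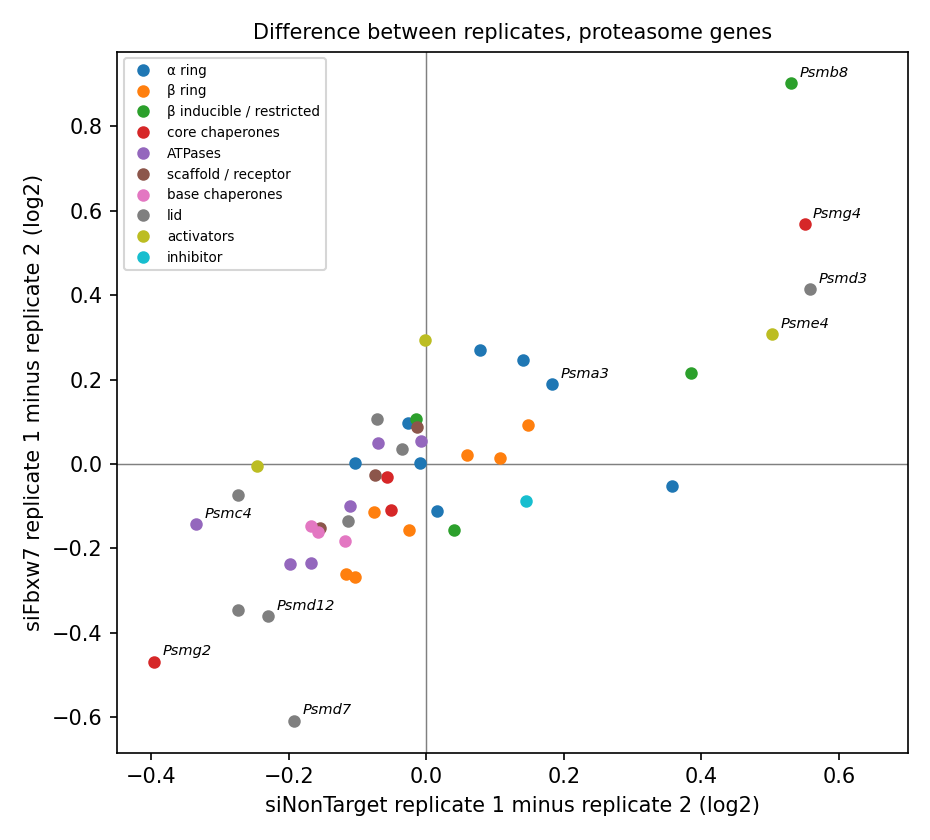
Each point is 1 of the 47 genes, coloured by role; the horizontal axis is replicate 1 minus replicate 2 of siNonTarget and the vertical axis the same for siFbxw7, both in log2 units. The points run from Psmg2 and Psmd7 at the lower left to Psmb8, Psmg4 and Psmd3 at the upper right, with r = 0.792 across genes.

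Probe sets of a member did not always give the same answer, and Psmc6, an ATPase, was the clearest case. It was singled out after its values were seen. The probe set used for the gene, the brightest of 3, read 11.92 and 11.93 with siNonTarget, 11.93 and 11.94 with siSox17, 11.91 and 11.86 with siFbxw7, 12.03 and 11.92 with siSocs3, and 11.93 and 12.01 with siRnf31. Its siFbxw7 arrays were the lowest of the 10, within a total range of 0.17, and its difference was 0.05 ± 0.09 in siSocs3 against siNonTarget (limma adjusted p = 0.783). The middle one read 10.79 and 10.65 with siNonTarget, 10.58 and 10.56 with siSox17, 10.79 and 10.48 with siFbxw7, 10.16 and 10.18 with siSocs3, and 10.49 and 10.26 with siRnf31. The dimmest read 8.62 and 8.81 with siNonTarget, 8.61 and 8.68 with siSox17, 8.61 and 8.61 with siFbxw7, 8.21 and 8.25 with siSocs3, and 8.51 and 8.25 with siRnf31. On both of these the siSocs3 arrays were the lowest of the 10, although siRnf31 replicate 2 equalled the higher of them to 2 decimals on the dimmest probe set. When every probe set was tested alone, these were the only 2 of the 100 member probe sets called in siSocs3 against siNonTarget, at -0.55 ± 0.13 and -0.48 ± 0.12 (limma adjusted p = 0.042 and 0.0463), beside 4.18% of all probe sets called lower. Both calls were lost when any 1 of the siNonTarget or siSocs3 arrays was left out, with adjusted p from 0.0755 to 0.245. Over the 47 members, 21 rest on 1 probe set and 26 on the brightest of several.

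**Figure D5:**
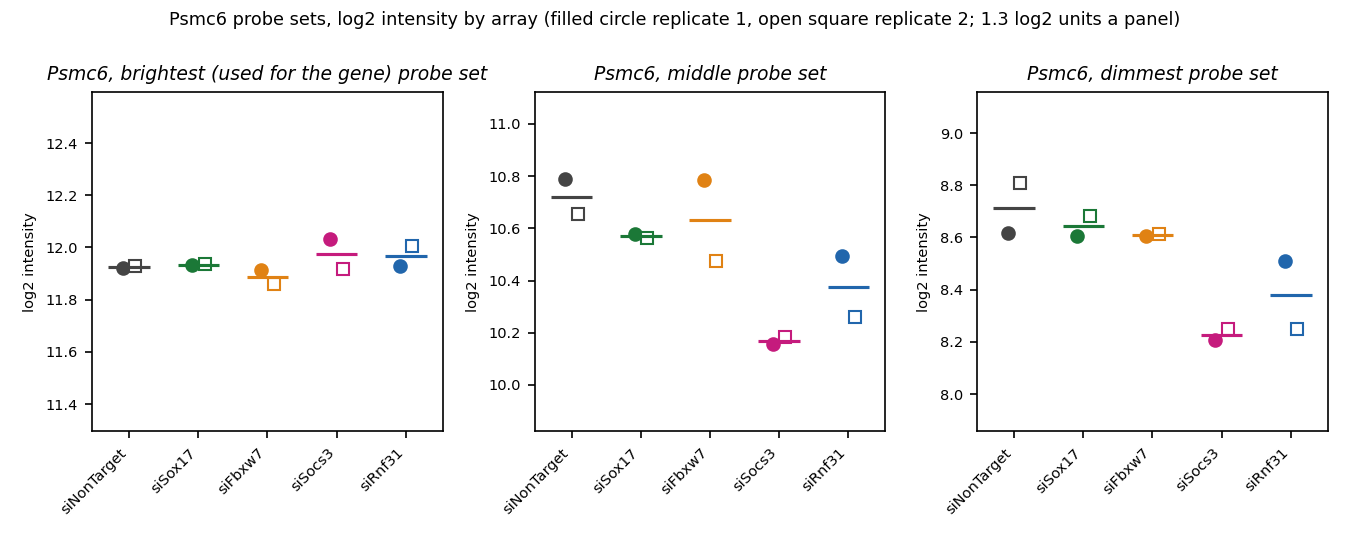
Log2 intensity of the 3 Psmc6 probe sets on the 10 arrays, by siRNA group; filled circles are replicate 1, open squares replicate 2 and bars the mean of both. The brightest spans 0.17 over the 10 arrays, and the other probe sets are lowest with siSocs3, by 0.55 and 0.48 from siNonTarget.

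Genes that work with the proteasome were followed through a list of partners, assembly factors, ubiquitin shuttles and regulators. In siSocs3 against siNonTarget limma's unadjusted p fell below 0.05 for 5 of 22 measured genes (22.7%), beside 26.2% of all genes. After adjustment 1 of the 22 passed, in the higher direction, where 3.59% of all genes were called higher. It was Zfand2a, a stress-inducible proteasome-binding protein, which read 8.48 and 8.72 with siNonTarget, 9.09 and 9.05 with siSox17, 8.67 and 8.91 with siFbxw7, 9.52 and 9.30 with siSocs3, and 8.94 and 8.80 with siRnf31. Its siSocs3 arrays were the highest of the 10, and it rose by 0.81 ± 0.13 (limma adjusted p = 0.0112). Without siNonTarget replicate 1 the adjusted p was 0.0653, and without siSocs3 replicate 1 it was 0.119. Zfand2a also passed against siFbxw7, at 0.62 ± 0.13 (limma adjusted p = 0.0403), where 2.09% of all genes were called higher. That call was lost in 11 of 18 alternatives, and 0 of 22 passed in the other 5 comparisons. Pomp, the maturation factor of the core, differed by 0.10 ± 0.12 in siSocs3 and Usp14, a deubiquitinase of the cap, by 0.13 ± 0.14. Adrm1, another ubiquitin receptor, was not analysed here. Nfe2l1, which activates proteasome genes when proteasome activity falls, differed by -0.03 ± 0.11, and Nfe2l2, the oxidative stress regulator, by 0.02 ± 0.16.

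The list of antigen-processing genes around the immunoproteasome gave 0 calls among 11 measured in any of the 7 comparisons. In siSocs3 against siNonTarget 7 of 11 estimates lay below 0, with a median of -0.30, beside 0.03 over all genes. H2-K1, a class I molecule, differed by -0.59 ± 0.16 (limma adjusted p = 0.0533). B2m, its light chain, differed by -0.43 ± 0.19 (adjusted p = 0.201), and Erap1, which trims peptides, by -0.87 ± 0.25 (adjusted p = 0.0663). Unadjusted p fell below 0.05 for 3 of the 11 (27.3%), beside 26.2% of all genes. Tap1, the peptide transporter, differed by -0.01 ± 0.31. H2-K1, B2m, Erap1 and Tap1 were picked from the list after their values were seen.

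Most embryonic stem cell markers read higher on the siSocs3 arrays than on the siNonTarget arrays. Of 12 embryonic stem cell markers, 6 were called higher in siSocs3 against siNonTarget and 0 lower. Estimates lay above 0 for 10 of them and below 0 for 2, Sox2 and Lin28a, and Lin28a differed by -0.46. The summed intensity of the 12 was 55029 and 57512 with siSocs3 against 34710 and 37199 with siNonTarget, 36006 to 46222 elsewhere. Of 12 fibroblast markers, Col1a2 and Twist1 were called lower and 0 higher. Over that list 7 of 12 estimates lay above 0, with a median of 0.00, and Pdgfrb differed by 0.48 ± 0.14 (limma adjusted p = 0.0669). The summed intensity of the fibroblast list, in which Col1a2 is among the brightest, was 1309 and 1505 with siSocs3, 1723 and 2152 with siNonTarget, 1466 and 1320 with siSox17, 1674 and 1316 with siFbxw7, and 1364 and 2287 with siRnf31. Of 9 blood cell markers Lcp1 was called higher and 0 lower. The blood list summed to 1087 and 953 with siSocs3, 885 and 654 with siNonTarget, 1463 and 1533 with siSox17, 900.4 and 1154 with siFbxw7, and 895 and 668 with siRnf31. Neither sum set siSocs3 apart from all other groups, and siSox17 had the highest blood sums. The part of cell composition in the member values was not tested.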

How the data were processed

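The authors deposited linear-scale intensities from RMA, per the submitters' processing notes; the RMA version is not given in the sources used here. Amplification started from 5 ng of RNA, per the labels' protocols. RMA makes arrays alike and so hides any shift common to most genes. From the deposited intensities log2 was computed, with no further scaling and no filter. Of 45101 probe sets, 34958 had 1 gene symbol in the platform annotation; 932 with several symbols and 9211 with none or unlisted were left out. The 47 members have 100 probe sets, and all 47 gene IDs matched RefSeq with the same symbol.

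limma 3.58.1 in R 4.3.3 (lmFit, eBayes) was fitted to all 10 arrays, 2 per group, with 5 residual and 3.98 prior degrees of freedom; the number of arrays limits the precision. Tests were two-sided, adjusted by Benjamini-Hochberg over 18194 genes, and errors are the model's standard errors. The model was tested on simulated data with known changes in the 4 comparisons with siNonTarget. At the same threshold it recovered 42% to 58% of log2 changes of 0.585 and 90% to 96% of changes of 1. Promoters were searched with Python 3.11.15. The main fit did not pair same-numbered replicates. Whether they were made together is not known, and the correlations of replicate differences cannot settle it. Alternatives were a replicate block, quantile normalization, median centring, a filter on the dimmest 30% of genes, another prior, averaging a gene's probe sets, only the 2 groups compared, leaving out each array, and leaving out both arrays of high actin difference; testing every probe set alone was added after seeing the data. The members and lists were chosen with earlier results of these data known. Genes were named in full by rule: the smallest p of each comparison, the highest and lowest mean of each role, the catalytic subunits and their inducible counterparts, Psma7, Psma8, Psmd11, Psmd14, the activators and Psmf1.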

Additional observations from a re-analysis of the deposited data

How the results depend on the processing

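Over 5915 member values computed under the alternatives, 5911 stayed on the same side of the threshold, 4 gained a call and 0 reversed with a call. Members called rose from 0 to 2 in siSocs3 against siNonTarget with a trended and robust prior (Psma3 and Psma7, lower). They rose from 0 to 1 in siSocs3 against siRnf31 (Psmb8, lower) without both arrays of high actin difference and with only the 2 groups compared. When every probe set was tested alone, siSocs3 against siNonTarget called 2 probe sets of 1 member, Psmc6, lower. The brightest Psmc6 probe set, used for the gene, was not among them. With 1 array left out, members called stayed at 0 in all 7 comparisons and the F test. The counts over all genes moved more. With 1 array left out, calls ran from 63 to 2074 in siSocs3 against siNonTarget (all arrays 1684; 63 without siSocs3 replicate 1, 313 without siNonTarget replicate 1), from 0 to 234 in siSox17 against siNonTarget (1), from 77 to 521 in siSocs3 against siSox17 (474), from 81 to 898 against siFbxw7 (638), from 22 to 552 against siRnf31 (387), and from 1 to 836 in the F test (340). Without both arrays of high actin difference the counts were 858, 16, 740, 218 and 677 for those 5 comparisons. With only the 2 groups compared they were 254 in siSox17 against siNonTarget, 881 in siSocs3 against siSox17 and 307 against siFbxw7. In siSox17 against siNonTarget a trended prior gave 0 and the mean of probe sets 3. The replicate block gave 0 there and 188 in the F test, changed no member call, and was not used in the main fit. Over all genes r of the replicate differences ran from -0.26 to 0.42, which cannot show whether same-numbered arrays were made together. The cause of these shifts was not tested beyond fewer arrays in the fits that leave one out. Low-intensity genes such as Psmb11 lie where RMA compresses differences.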
